A study of Mus musculus with 6 samples.

Results

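The 4 stress and wound keratins, *Krt6a*, *Krt6b*, *Krt16* and *Krt17*, were chosen by gene symbol from the 22295 genes of the count table. The rule used no measured value, but the choice was made with earlier results of these data known. All 4 were detected in all 6 libraries, with 2521 to 91147 counts per library, and all were among the 21681 genes tested. Their transcripts were counted in GFP-positive cells that had been sorted by FACS from the back skin epidermis of 3 K19 *Itga3* WT and 3 K19 *Itga3* KO mice, with 1 library per mouse. WT mice were 19(Cre-ERT); mTmG and KO mice 19(Cre-ERT); mTmG; Itga3 fl/fl, and both lines were bred on FVB (FVB/N in the methods). The question put to these libraries was how loss of integrin α3β1 from cells that derive from the hair bulge (HB) changes their transcripts early in skin carcinogenesis.

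Both groups carried the inducible Cre, which is driven by the K19 promoter and marks HB keratinocytes and their progeny, and the mT/mG reporter, which switches to GFP after recombination. Both also received tamoxifen, then 30 µg of the carcinogen DMBA at 7 weeks of age and then, for 2 weeks, repeated applications of 12.34 µg of the tumor promoter TPA. The groups therefore differed in the floxed *Itga3* allele and not in treatment, and untreated skin was not sequenced. TPA makes the epidermis hyperproliferative, so both groups represent stimulated skin. By the study's account GFP-positive cells at this stage were also seen in the layers of growing hair follicles (HFs) and at times higher in the follicle and in the interfollicular epidermis (IFE), so the sort was not limited to cells still in the HB.

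Keratins form the intermediate filaments of epithelial cells as obligate pairs of a type I (acidic) and a type II (basic to neutral) chain. K6a and K6b are type II and K16 and K17 are type I. In the resting IFE these genes are low or silent, while they are expressed in the outer root sheath and the companion layer of the HF. They are induced in the epidermis by wounding, by TPA and in tumors, which is why they are called stress keratins, and basal keratinocytes are instead built on the type II keratin K5 and the type I keratin K14.

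The members lie in the keratin clusters of their type, all on the minus strand of GRCm38. *Krt6a* (ENSMUSG00000058354) spans chr15:101689932-101694307 and *Krt6b* (ENSMUSG00000023041) chr15:101676034-101680289, with starts 13.9 kb apart. *Krt16* (ENSMUSG00000053797) spans chr11:100246091-100248902 and *Krt17* (ENSMUSG00000035557) chr11:100256217-100261029, with starts 10.1 kb apart. The targeted gene *Itga3* is on the same chromosome as the type I pair, 5.20 Mb from *Krt16* and 5.21 Mb from *Krt17*.

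Reads were 65 bases long and only those with a single match in the genome were counted, so the sequence of each member sets how well its transcript can be counted. The coding sequences of *Krt6a* and *Krt6b* were 97.6% identical, with 37 substitutions and 3 gap positions, whereas those of *Krt16* and *Krt17* were 70.9% identical. Across types the identity was 46.8% to 51.1%. The longest coding stretch that *Krt6a* and *Krt6b* share is shown first because no read that lies inside it can be given to either gene. It is 280 bases long and is exonic at chr15:101693936-101694215 in *Krt6a* and at chr15:101679911-101680190 in *Krt6b*.

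Krt6a and Krt6b, identical coding stretch: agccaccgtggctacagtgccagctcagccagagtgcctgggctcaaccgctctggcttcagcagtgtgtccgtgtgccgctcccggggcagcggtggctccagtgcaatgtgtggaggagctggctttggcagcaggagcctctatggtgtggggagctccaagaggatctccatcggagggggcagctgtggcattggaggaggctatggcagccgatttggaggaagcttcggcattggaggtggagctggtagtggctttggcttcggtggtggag

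The coding stretch of 1 read length with the most differences between both genes is shown next, since reads from such positions carry the distinction. It holds 11 differences, which are in capitals, and lies at chr15:101692490-101692554 in *Krt6a* and at chr15:101678309-101678373 in *Krt6b*.

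Krt6a: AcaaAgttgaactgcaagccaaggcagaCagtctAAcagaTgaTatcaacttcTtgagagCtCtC
Krt6b: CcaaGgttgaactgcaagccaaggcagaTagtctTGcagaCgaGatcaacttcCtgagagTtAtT

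For the type I pair the longest identical coding stretch was 55 bases, shorter than a read. It lies at chr11:100246625-100246679 in *Krt16* and at chr11:100257448-100257502 in *Krt17*, and is printed to show how far this pair can be told apart.

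Krt16 and Krt17, identical coding stretch: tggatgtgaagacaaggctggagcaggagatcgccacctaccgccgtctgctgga

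The most different stretch of 1 read length held 26 differences, again in capitals, at chr11:100247136-100247200 in *Krt16* and at chr11:100257777-100257841 in *Krt17*.

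Krt16: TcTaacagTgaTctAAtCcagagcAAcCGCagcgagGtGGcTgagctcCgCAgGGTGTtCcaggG
Krt17: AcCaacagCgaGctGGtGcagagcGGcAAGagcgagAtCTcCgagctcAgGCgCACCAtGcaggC

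Each transcript was then divided into every possible window of 65 bases and searched for in the annotated transcripts of all other genes. Of the 2214 windows of *Krt6a*, 1002 (45.26%) were identical in another gene, 867 of them in *Krt6b*. *Krt6b* had 956 such windows of 2171 (44.04%). *Krt16* had 465 of 1501 (30.98%), of which 345 were in the pseudogene *Gm11597* and 120 in *Krt14*. *Krt17* had 13 of 1487 (0.87%), all in *Krt14*. *Krt17* was thus the member whose count was least exposed to reads lost to a copy, and the counts of *Krt6a*, *Krt6b* and *Krt16* can be lower than their transcripts would give. *Gm11597* itself had at most 1 count in any library, and the *Krt6*-like genes *Gm5414* and *Gm5478* had 1 to 28.

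**Figure D1:**
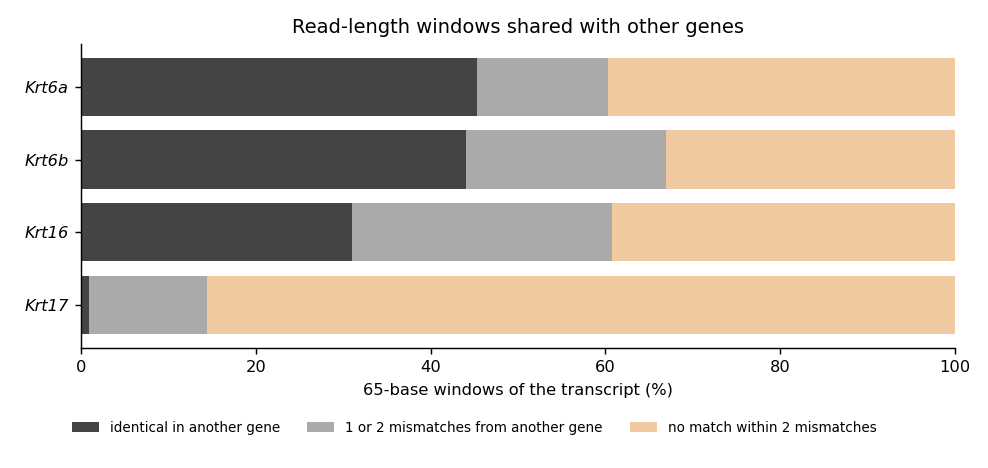
Share of the 65-base windows of each member's transcript (x axis, %) that was identical in another gene (dark), had 1 or 2 mismatches from another gene (grey) or matched none within 2 mismatches (light). Within 2 mismatches the shared part reached 60.34% for *Krt6a*, 66.97% for *Krt6b* and 60.76% for *Krt16*, but 14.46% for *Krt17*.

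Library totals were 20578309 to 23670507 counts, and values are given as CPM, which are counts relative to each library's total after scaling with TMM factors of 0.9813 to 1.0314. Letters (a to c) name the libraries of each genotype by their columns and do not pair them. *Itga3* was at 371.3, 252.5 and 271.2 CPM in WT and at 130.8, 123.7 and 133.8 CPM in KO (log2 fold change -1.20, SE 0.13, adjusted p = 0.00283), so the KO label matched the targeted gene in every library. The keratinocyte label matched as well: *Krt5* ranked 1st and *Krt14* 4th of all genes by CPM. Markers of other cell types in the skin were low, with sums of 6.92 to 13.3 CPM for 6 immune genes and 6.33 to 13.4 CPM for 5 melanocyte genes. The sum of 4 endothelial genes was lower in every KO library (3.70 to 4.97 CPM) than in every WT library (5.56 to 8.67 CPM). The median log2 fold change of these 4 was 0.009, with 2 of 4 above 0. None of them was called by edgeR or limma-voom, and DESeq2 called *Tek* as lower. Over all 21681 tested genes DESeq2 called 546. An unadjusted edgeR p below 0.05 was found for 2 of the 4, against 11.5% of all tested genes. *Lyz2* and *Cdh5*, an immune and an endothelial marker, had at most 3 counts in each library. The sum of 6 fibroblast genes was also lower in KO (48.1 to 80.3 CPM) than in WT (116 to 178 CPM). Their median log2 fold change was 0.33, with 3 of 6 above 0. *Lum* had no more than 3 counts in each library, and its KO libraries were above its WT libraries. *Col1a1*, the most abundant, was at 85.4 CPM in WT and 37.5 CPM in KO on average, with overlapping groups. None of the 6 was called by edgeR or limma-voom, and DESeq2 called *Col1a2* as lower and *Dcn* as higher. An unadjusted edgeR p below 0.05 was found for 5 of the 6, against 11.5% of all tested genes. The part of these 2 sums in the values of the stress keratins was not tested.

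Of the 4 stress keratins, *Krt17* was higher in KO at an adjusted p below 0.05, with 2078 ± 10.3 CPM in WT and 3437 ± 633 CPM in KO (mean ± SD, n = 3 each), which is 1.65-fold. *Krt6a*, *Krt6b* and *Krt16* had mean levels 1.5-fold, 1.96-fold and 1.72-fold those of WT but did not pass this threshold (adjusted p = 0.122, 0.204 and 0.0978). The test was the quasi-likelihood test of edgeR across all tested genes with Benjamini-Hochberg adjustment, and it called 0.673% of the 21681 genes in either direction and 0.461% as higher in KO. For *Krt6a*, *Krt16* and *Krt17* every KO library was above every WT library, which held for 8.03% of all tested genes. In bulk RNA of sorted cells, more cells that express a keratin and more of its mRNA per cell cannot be told apart.

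**Figure D2:**
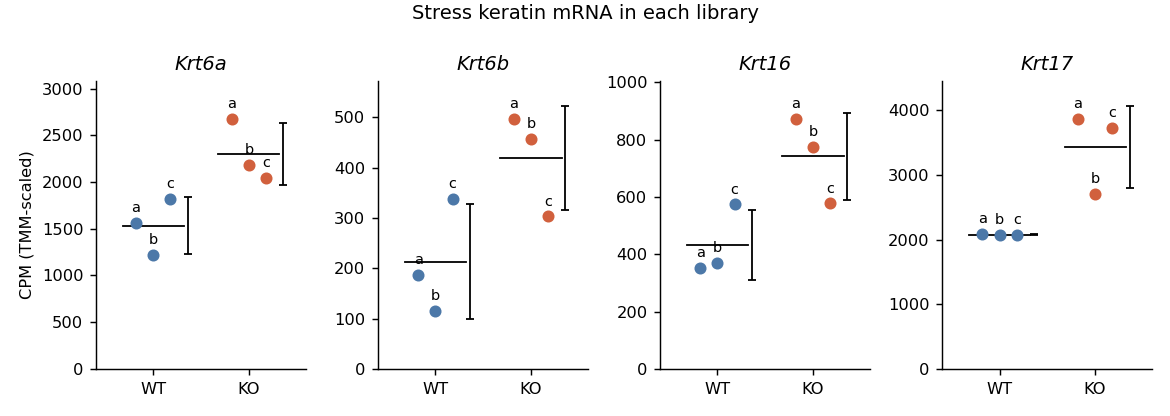
CPM of each stress keratin (y axis, scaled by TMM factors, 1 panel per gene, starting at 0) in the WT (blue) and KO (orange) libraries, marked by their letters, with the mean as a line and the SD as a bar (n = 3). WT and KO libraries were apart for *Krt6a*, *Krt16* and *Krt17*, while for *Krt6b* the library WT c, at 338.7 CPM, was above KO c, at 303.2 CPM.

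*Krt6a*, the more abundant of the 2 K6 genes, was at 1565 (a), 1219 (b) and 1819 CPM (c) in the WT libraries and at 2679, 2180 and 2044 CPM in the KO libraries, in the same order. The groups did not overlap, and the gap between WT c and KO c was small beside the range within each group. The log2 fold change was 0.59 (SE 0.15, 95% interval 0.25 to 0.92, unadjusted p = 0.00252). An exact two-sided permutation test of the 3 against 3 libraries gave p = 0.1, the smallest that this design allows.

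*Krt6b* was at 186.3, 115.5 and 338.7 CPM in WT and at 497.8, 456.8 and 303.2 CPM in KO. It was the most variable member: WT c was the highest and WT b the lowest of the WT libraries, and WT c lay above KO c, so the groups overlapped. The log2 fold change of 0.97 was the highest of the 4, but so was its error (SE 0.31, 95% interval 0.31 to 1.64, unadjusted p = 0.00809), and the exact permutation test gave p = 0.2. Since *Krt6a* and *Krt6b* share so many windows, their counts were also summed before the fit. This gave a log2 fold change of 0.64 with an adjusted p of 0.126.

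*Krt16*, the type I keratin that is paired with K6 in stressed epidermis, was at 352.2, 369.3 and 573.8 CPM in WT and at 873.0, 773.3 and 576.9 CPM in KO. The groups did not overlap, but WT c and KO c were almost level. The log2 fold change was 0.78 (SE 0.19, 95% interval 0.36 to 1.20, unadjusted p = 0.00161), with an exact permutation p of 0.1.

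*Krt17*, which is found in the outer root sheath and, in stressed skin, in the IFE, was at 2090, 2069 and 2076 CPM in WT and at 3874, 2710 and 3725 CPM in KO. The 3 WT libraries were nearly identical, and all KO libraries were higher, with KO b nearest to WT. The log2 fold change was 0.73 (SE 0.13, 95% interval 0.43 to 1.02, adjusted p = 0.0409), and the exact permutation test gave p = 0.1. This call was lost with limma-voom (adjusted p = 0.105), under each of the 3 gene filters (filterByExpr, 0.131, at least 10 counts in every library, 0.136, and protein-coding genes only, 0.122) and in each of the fits without WT b (0.0828), WT c (0.368), KO a (0.306) or KO c (0.182). The log2 fold change in these fits was 0.63 to 0.73. It was kept without WT a (0.0280) and without KO b (0.00754).

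**Figure D3:**
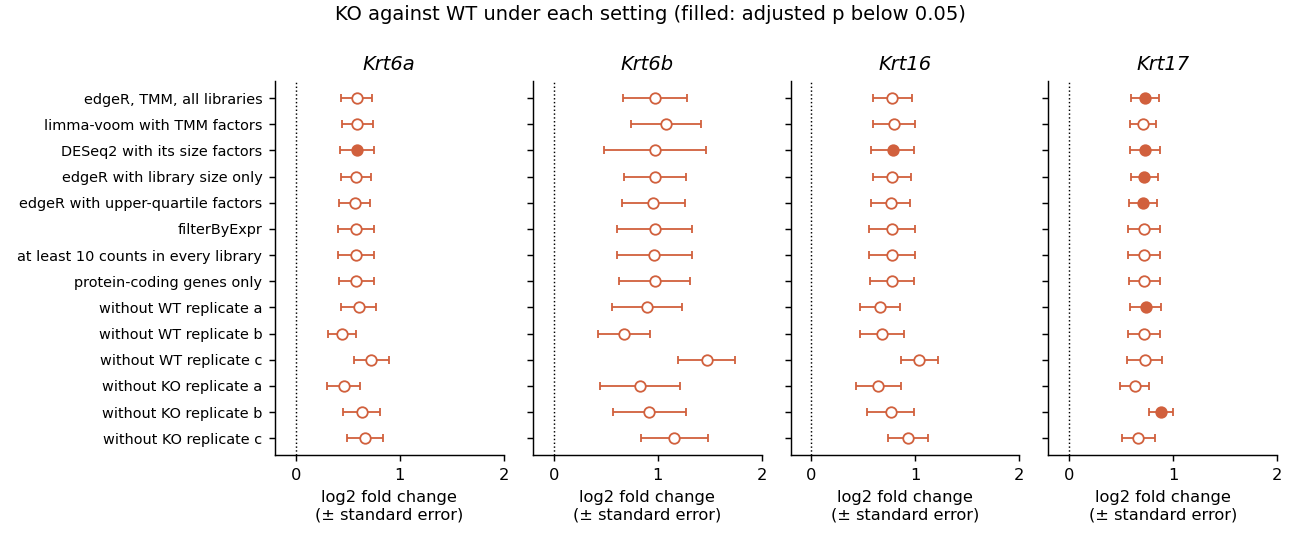
Log2 fold change of KO against WT (x axis, with its standard error) for the 4 stress keratins under each test, scaling, gene filter or left-out library (rows), with filled points where the adjusted p was below 0.05. All values lie above 0, between 0.44 and 1.48, and filled points occur in DESeq2 for 3 members and elsewhere in the *Krt17* panel.

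*Krt6a*, *Krt6b* and *Krt16* were alike in which libraries were highest. WT c was the highest WT library for all 3, and their KO libraries fell in the order a, b, c, while the lowest WT library was b for *Krt6a* and *Krt6b* and a for *Krt16*. For *Krt17* the KO order was a, c, b and the WT libraries lay between 2069 and 2090 CPM. With the genotype means removed, the log2 CPM of *Krt6a* and *Krt6b* correlated over the 6 libraries with a Pearson r of 0.92, those of *Krt6b* and *Krt16* with 0.87 and those of *Krt6a* and *Krt16* with 0.78. The values for *Krt17* with *Krt6a*, *Krt6b* and *Krt16* were 0.23, -0.11 and -0.09. These are descriptions of 6 points that share their libraries and depth, and *Krt6a* and *Krt6b* also share sequence.

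To compare the genes with each other, CPM were divided by exon length. In WT the level was 1340 ± 6.61 CPM per kb for *Krt17*, 673.5 ± 132 for *Krt6a*, 275.9 ± 78.8 for *Krt16* and 95.5 ± 51.0 for *Krt6b* (mean ± SD, n = 3). The KO levels were 2216 ± 408, 1010 ± 147, 473.5 ± 96.3 and 187.6 ± 45.9 CPM per kb in the same order. This order held in all 6 libraries. Within a library *Krt17* was 1.68 to 2.68 times *Krt6a*, *Krt6a* was 1.94 to 3.05 times *Krt16* and *Krt16* was 2.42 to 4.57 times *Krt6b*. Dividing by the number of windows found in no other gene kept the order in 5 of 6 libraries. In WT c *Krt6a*, at 1500, was then above *Krt17*, at 1409 (CPM per kb of such windows).

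The basal keratins *Krt5* and *Krt14* were higher than each member, and the WT and KO groups of both overlapped. *Krt5* was at 8984 CPM per kb in WT and 8822 in KO on average, and *Krt14* at 3586 and 4073 CPM per kb. In CPM, *Krt5* was at 23980, 14270 and 20970 in WT and at 17880, 21070 and 19190 in KO. Its groups overlapped, with a log2 fold change of -0.03 (SE 0.18, adjusted p = 0.978). The log2 fold change of *Krt14* was 0.18 (SE 0.13, adjusted p = 0.647) and that of the HB keratin gene *Krt15* was -0.21 (adjusted p = 0.681).

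**Figure D4:**
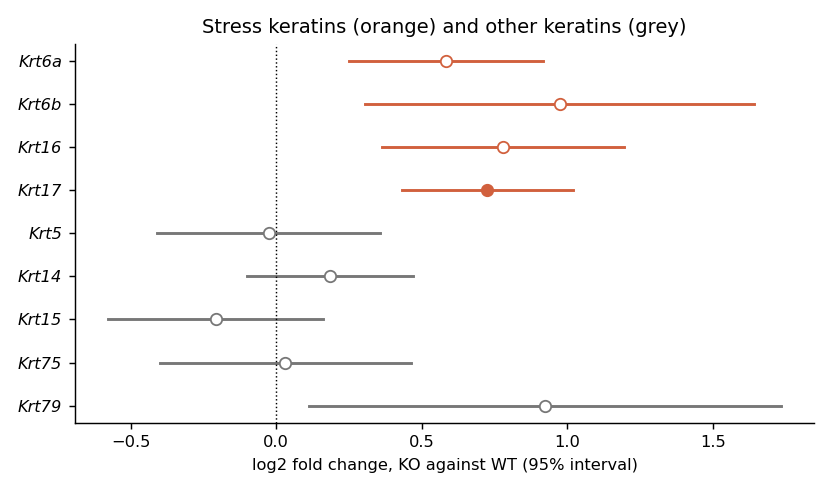
Log2 fold change of KO against WT (x axis) with its unadjusted 95% interval for the 4 stress keratins (orange) and 5 other keratins (grey), with a filled point where the adjusted p was below 0.05. The intervals of the stress keratins start between 0.25 and 0.43, and those of *Krt5*, *Krt14*, *Krt15* and *Krt75* include 0. The interval of *Krt79* also lies above 0 (0.11 to 1.73), with a log2 fold change of 0.92 and an adjusted p of 0.355.

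Ratios within a library do not depend on the scaling between libraries. The 4 members took 8.02%, 10.4% and 10.1% of all keratin counts in WT and 17.2%, 12.4% and 14.5% in KO, so all KO shares were above all WT shares (9.50% ± 1.29 in WT and 14.7% ± 2.39 in KO). Their sum was 13.9%, 19.4% and 17.2% of that of *Krt5* and *Krt14* in WT and 31.3%, 21.9% and 25.9% in KO. In both cases the exact two-sided permutation p was 0.1, the smallest possible, and 0.25 after adjustment over the 5 ratios compared.

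The balance between partners did not differ beyond its spread. The type I to type II ratio, *Krt16* plus *Krt17* over *Krt6a* plus *Krt6b* per exon length, was 2.04, 2.68 and 1.80 in WT and 2.18, 1.93 and 2.68 in KO (exact permutation p = 0.7). Counted per window found in no other gene the ratio was 1.31 ± 0.26 in WT and 1.37 ± 0.21 in KO, so its level depends on how shared sequence is treated. *Krt6b* made up 10.6%, 8.65% and 15.7% of the *Krt6a* and *Krt6b* counts in WT and 15.7%, 17.3% and 12.9% in KO, and these groups overlapped (exact permutation p = 0.3). *Krt16* made up 14.4%, 15.1% and 21.7% of the *Krt16* and *Krt17* counts in WT and 18.4%, 22.2% and 13.4% in KO (exact permutation p = 0.9). With 3 libraries per group these p-values do not show that the ratios were equal.

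The table held 44 other keratin genes, of which 42 were tested. edgeR called 3, all higher in KO, against 0.673% of all tested genes in either direction. An unadjusted p below 0.05 was found for 11 of the 42, against 11.5% of all tested genes. The 3 called were the inner root sheath keratins *Krt25* and *Krt28* and the hair keratin *Krt35*. DESeq2 called 6, these and *Krt83* as higher and *Krt42* and *Krt2* as lower, and limma-voom called 0. Over all 21681 tested genes, DESeq2 called 546 and limma-voom 24. The edgeR calls of *Krt28* and *Krt35* were also lost with library size only (adjusted p = 0.0553 and 0.055). Without WT b they were lost as well (0.078 and 0.124). *Krt28* also lost its call with at least 10 counts in every library (0.139). All 3 keratins lost theirs under filterByExpr, with protein-coding genes only and without WT c, KO a or KO c. Their levels were low: *Krt28* was at 1.33, 2.06 and 1.68 CPM in WT and at 9.05, 3.00 and 5.95 CPM in KO (log2 fold change 1.83, SE 0.36, adjusted p = 0.0461). *Krt25* reached 6.92 CPM and *Krt35* 5.10 CPM in KO, against at most 0.641 and 0.353 CPM in WT, where 3 counts correspond to 0.132 to 0.138 CPM. The median log2 fold change of the 42 genes was 0.02, with 23 above 0, against 1e-04 for all tested genes. *Krt75*, the companion layer keratin, was at 104.2, 127.7 and 78.4 CPM in WT and at 74.2, 116.7 and 126.1 CPM in KO (log2 fold change 0.03, SE 0.20, adjusted p = 0.976). *Krt42*, the type I gene beside *Krt17*, had a log2 fold change of -1.04 (SE 0.31, adjusted p = 0.176 in edgeR), opposite in sign to that of its neighbor.

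Genes that are known to be induced with the stress keratins in wounds and hyperproliferative epidermis were examined as a list of 33, which holds alarmins, small proline-rich proteins, interleukins of the IL-1 family, EGF receptor ligands, proteases and laminin-332 chains. None was called by edgeR, DESeq2 or limma-voom, and 9 had an unadjusted edgeR p below 0.05, which 11.5% of all tested genes had. The median log2 fold change was 0.44, with 25 of 33 above 0, against a median of 1e-04 and 50% above 0 for all tested genes. In 3 genes, *Plau*, *Il1a* and *Il1f8* (named after their values were seen), every KO library was above every WT library, a share near the 8.03% of all tested genes. The most abundant gene of the list was *Lamb3*, a chain of the α3β1 ligand laminin-332, at 764.1, 691.1 and 630.7 CPM in WT and 435.2, 637.5 and 567.0 CPM in KO. Its groups overlapped, and its log2 fold change was -0.35 (SE 0.14, adjusted p = 0.341).

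Of 22 transcription factors, receptors and coregulators reported to act on stress keratin genes, 1 was called, against 0.673% of all tested genes. *Cebpb*, which encodes the transcription factor C/EBPβ, was at 59.1, 59.2 and 47.7 CPM in WT and at 95.2, 76.5 and 94.4 CPM in KO. The groups were apart, with a log2 fold change of 0.68 (SE 0.12, adjusted p = 0.0260). An unadjusted edgeR p below 0.05 was found for 4 of the 22, against 11.5% of all tested genes. The median log2 fold change of the 22 genes was 0.14, with 19 above 0, against a median of 1e-04 and 50% above 0 for all tested genes. The most abundant of them, the AP-1 gene *Fos*, was at 4166, 2115 and 2381 CPM in WT and at 3188, 3948 and 3467 CPM in KO, with overlapping groups and a log2 fold change of 0.29 (SE 0.21, adjusted p = 0.662). The *Cebpb* call was lost with limma-voom (adjusted p = 0.106), under the 3 gene filters, and without WT c (0.364), KO a (0.290) or KO c (0.144).

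Among 16 tested genes for proteins that anchor or bind keratin filaments, edgeR and limma-voom called none. DESeq2 called 1 as lower in KO, against 546 of all 21681 tested genes in either direction. This was *Dst* (log2 fold change -0.77, adjusted p = 0.00253 in DESeq2), which encodes an anchor of filaments at hemidesmosomes. An unadjusted edgeR p below 0.05 was found for 3 of the 16, against 11.5% of all tested genes. *Dsp*, which encodes the desmosomal anchor desmoplakin, was at 5262, 4614 and 5485 CPM in WT and at 4629, 5166 and 5020 CPM in KO. Its groups overlapped, with a log2 fold change of -0.05 (SE 0.11, adjusted p = 0.872), and the median of the list was 0.08.

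Markers of HF compartments that express these keratins, or lie beside those that do, were summed per library. The 6 upper follicle genes summed to 827.5, 1496 and 892.3 CPM in WT and to 1992, 1207 and 1663 CPM in KO. Of these 6, 1 was called, *Plet1*, against 0.673% of all tested genes. It was at 94.9, 63.2 and 79.5 CPM in WT and 165.1, 132.3 and 124.7 CPM in KO (log2 fold change 0.83, SE 0.15, adjusted p = 0.0325). The *Plet1* call was lost with limma-voom (adjusted p = 0.111), under the 3 gene filters, and without WT b (0.0523), WT c (0.368), KO a (0.306) or KO c (0.0739). The 8 tested inner root sheath and hair shaft genes, which include the 3 keratins called above, summed to 7.44, 18.3 and 10.6 CPM in WT and to 44.0, 13.1 and 37.9 CPM in KO, with *Krt72* at 0. In both sums the KO libraries had the order of *Krt17*, a, c, b. In WT library b had the highest sum, whereas *Krt17* stayed nearly level. The most abundant gene of each list had the order of its sum. *Krt79* was at 287.6, 894.5 and 384.6 CPM in WT and at 1359, 590.3 and 1024 CPM in KO. *Krt73* was at 0.918, 7.83 and 2.29 CPM in WT and at 13.2, 2.06 and 7.835 CPM in KO. *Plet1* instead had the KO order a, b, c and was lowest in WT b. The median log2 fold change was 0.285 (4 of 6 above 0) and 1.565 (8 of 8). The part of these compartments in the stress keratin values was not tested.

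The 7 HB genes summed to 12240 to 18330 CPM in WT and 11490 to 14910 CPM in KO. Most of this sum was *Krt15*, at 9798 to 15460 CPM in WT and 9616 to 12490 CPM in KO. The median log2 fold change of the 7 was -0.21, with 1 above 0. Over all tested genes the median was 1e-04, with 50% above 0. An unadjusted edgeR p below 0.05 was found for 2 of the 7, against 11.5% of all tested genes. Of these 7, 1 was called, against 0.673% of all tested genes: *Cd34*, lower in KO (log2 fold change -0.73, SE 0.14, adjusted p = 0.0462). The *Cd34* call was lost with limma-voom (adjusted p = 0.119), under the 3 gene filters (0.123 to 0.133), and without WT b (0.0685), WT c (0.379), KO a (0.250) or KO c (0.184). The 6 suprabasal epidermis genes summed to 1382 to 1964 CPM in WT and 1750 to 1842 CPM in KO, and *Krt1*, their most abundant gene, had a log2 fold change of 0.07 (adjusted p = 0.855). The 5 proliferation genes summed to 170.9 to 754.2 CPM in WT and 389.5 to 636.9 CPM in KO, and the 4 sebaceous genes to 113.3 to 351.0 and 173.6 to 280.8 CPM. In the suprabasal, proliferation and sebaceous lists none was called by edgeR, DESeq2 or limma-voom, and none had an unadjusted p below 0.05. The WT and KO ranges of all 4 sums overlapped, and the part of these compartments in the stress keratin values was not tested either.

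**Figure D5:**
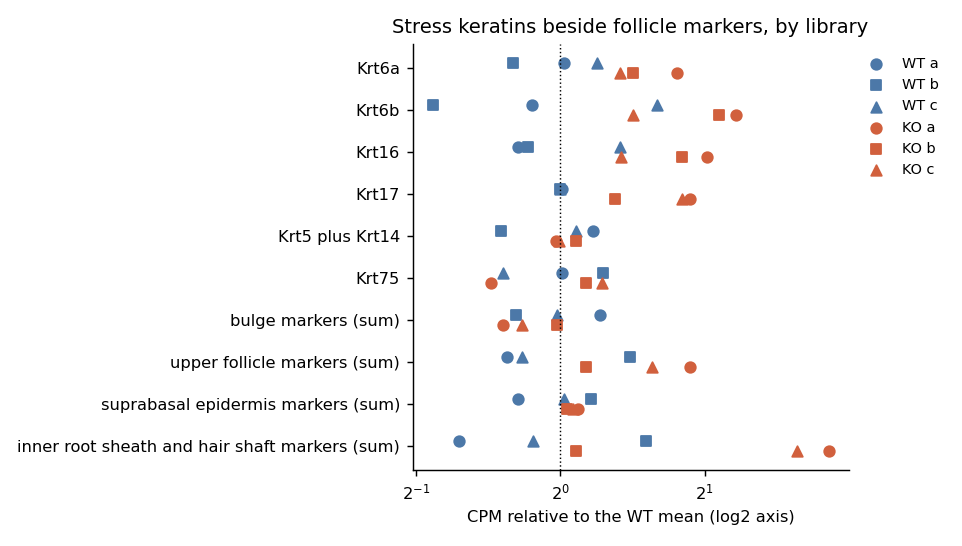
CPM of the stress keratins, of *Krt5* plus *Krt14*, of *Krt75* and of summed marker lists in each library, relative to the WT mean (x axis, log2 scale). Circles, squares and triangles stand for libraries a, b and c in WT (blue) and KO (orange). *Krt17* is within 0.996 to 1.01 in WT and at 1.86 (a), 1.30 (b) and 1.79 (c) in KO. The upper follicle sum is at 0.772 (a), 1.4 (b) and 0.833 (c) in WT and at 1.86, 1.13 and 1.55 in KO, with WT b above KO b.

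For each member the genes with the most similar levels over the 6 libraries were listed among 12279 protein-coding genes, by Pearson r of log2 CPM. For *Krt17* these included *Elk4* (r = 0.9949) and *Wnt5a* (0.9932). *Wnt5a*, a ligand of non-canonical WNT signaling, was at 5.23, 5.04 and 4.50 CPM in WT and at 14.1, 8.11 and 14.8 CPM in KO. It was called (log2 fold change 1.32, SE 0.22, adjusted p = 0.0251), with KO b nearest to WT as for *Krt17*. This call was lost with limma-voom (adjusted p = 0.132), under the 3 gene filters, and without WT b (0.0563), WT c (0.368), KO a (0.290) or KO c (0.125). The genes nearest to *Krt6a* were *Arf6* (0.9923), *Bmpr1a* (0.9915) and *Ftsj1* (0.9901), those nearest to *Krt6b* were *Bag1* (0.9940), *Nfkbid* (0.9929) and *Hira* (0.9928), and those nearest to *Krt16* were *Tmem154* (0.9876), *Sdr9c7* (0.9830) and *Ehd4* (0.9787). None of these 9 was called, and no nearest gene was shared between members. These genes were picked as the highest of many over 6 points that share their depth, so the values only describe the libraries.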

How the data were processed

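The authors prepared strand-specific TruSeq libraries from polyadenylated RNA, sequenced single reads of 65 bases, aligned them to GRCm38 with TopHat2 2.1.0 and Bowtie 1.1 (versions from the submitters' processing notes and the methods), and counted uniquely mapped reads per Ensembl gene with a strand-aware script. The deposited values are these counts, whole numbers without normalization or pooling. They also used limma and edgeR with voom. Reads that match more than 1 place were dropped, which lowers the count of genes with near-identical copies.

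Here, the 21681 genes with any count were fitted in edgeR 4.0.16 under R 4.3.3 (TMM, glmQLFit, glmQLFTest, KO against WT, no covariate), and adjusted p-values are from this test unless another is named. Columns carried the genotype but no sample number. No library was a copy of another of its genotype by its counts (chi-square divided by degrees of freedom 10.1 to 51.8). Depth was 20578309 to 23670507 counts, and 3 counts, taken as the floor, are 0.1275 to 0.1451 CPM, for counting error only. Exact permutation tests were two-sided on 3 against 3 libraries. Exon lengths, strand, windows and sequences came from GENCODE M21 transcripts on GRCm38, which held 98.9% of the gene identifiers, and gene coordinates from the count table. Only annotated transcripts were searched for windows, not the whole genome.

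The members and lists were chosen with earlier results of these data known. Named were the members, their 3 nearest genes (protein-coding, at least 10 counts in every library, prior count 1), each called and the most abundant gene of a list, *Krt5*, *Krt14*, *Krt15*, *Itga3* and genes that share windows. Other genes were named after their values were seen. One nearest gene is not reported here. Alternatives were limma-voom 3.58.1, DESeq2 1.42.0, library size only, upper-quartile factors, filterByExpr, at least 10 counts in every library, protein-coding genes only and each library left out. Scaling by windows found in no other gene and the sum of *Krt6a* and *Krt6b* were chosen after seeing the data. The code was tested on simulated counts.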

Additional observations from a re-analysis of the deposited data

How the results depend on the processing

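The log2 fold changes of the 4 members stayed above 0 in every alternative run, from 0.44 to 0.73 for *Krt6a*, 0.68 to 1.48 for *Krt6b*, 0.65 to 1.04 for *Krt16* and 0.63 to 0.88 for *Krt17*, while the calls moved. Of the 4 members 1 was called, 3 with DESeq2 (*Krt6a* 0.59, adjusted p = 0.0152, and *Krt16* 0.78, adjusted p = 0.00813, besides *Krt17*), and 0 with limma-voom, filterByExpr, at least 10 counts in every library or protein-coding genes only. There the log2 fold change of *Krt17* was 0.71, 0.72, 0.72 and 0.72 (adjusted p = 0.105, 0.131, 0.136 and 0.122). With 1 library left out, 0 to 1 members were called and *Krt17* ranged from 0.63 to 0.88. Calls over all genes ranged with it, from 5 without WT c to 521 without WT a, and were 146 with all libraries, 546 with DESeq2, 24 with limma-voom, and 15, 12 and 25 under the 3 gene filters. The cause was not tested. Without WT c *Krt6b* was at 1.48 (adjusted p = 0.304). Over the alternatives the adjusted p was 0.0152 to 0.586 for *Krt6a*, 0.199 to 0.720 for *Krt6b*, 0.00813 to 0.574 for *Krt16* and 7.56e-05 to 0.368 for *Krt17*, called in 5 of 13. *Cebpb* was called in 6 of 13 and *Wnt5a*, *Plet1* and *Cd34* in 5 of 13 each, *Krt28* in 4 of 13, *Krt25* in 6 of 12, *Krt35* in 4 of 12 and *Itga3* in 11 of 13, each with its direction kept. With 1 library left out, the log2 KO to WT ratio of the type I to type II balance ranged from -0.077 to 0.24 (-0.058 without WT c, -0.077 without KO c) and that of the *Krt16* share from -0.10 to 0.28 (-0.03 without WT a, -0.003 without WT b, -0.10 without KO b), so neither has a settled direction. That of the *Krt6b* share was 0.39 with all libraries, 0.22 without WT b and 0.67 without WT c. Those of the share of keratin counts and of the sum over *Krt5* plus *Krt14* ranged from 0.50 to 0.74 and from 0.51 to 0.76. Depth did not limit the members, whose lowest count was 2521. No paired analysis was possible because the columns carry no replicate number that the labels tie to a sample.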
